A study of Mus musculus with 24 samples.

Results

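The deletion of Acf1 was examined by comparing the 2 RNA-seq libraries of Acf1Δ mouse embryonic stem cells (mESCs) with the 2 wild-type (WT) libraries of the same batch, called batch E. These are 4 of 24 libraries, and the genotype and batch labels say which they are. The other 20 libraries are 9 of WT cells in 4 further batches and 11 of cells lacking Rsf1, Wstf, Tip5, Bptf or Cecr2, each a noncatalytic subunit of an ISWI chromatin remodeling complex. Acf1Δ cells carry CRISPR-Cas9 mutations in Baz1a, the gene that encodes ACF1, and WT cells are mESCs without such a mutation. Both groups have the 129S6/SvEvTac background and were grown in serum with leukemia inhibitory factor (LIF) on gelatin. Per the methods, 1 clone stood for each genotype, and Acf1 was targeted more than once so that an alternative isoform was also removed. What was particular to that clone and what came from the loss of ACF1 therefore cannot be told apart. The libraries of a group are called independent replicates, but nothing says that they came from separate clones. Each p-value thus measures the spread between libraries of a group, pooled over the 24 libraries of the fit, and not that between clones.

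ISWI remodelers slide nucleosomes with an ATPase, SNF2H (gene Smarca5) or SNF2L (gene Smarca1), and a larger partner protein sets which complex the ATPase joins. ACF1 pairs with SNF2H in ACF, and with the small histone-fold proteins CHRAC1 and POLE3 added the complex is CHRAC. Both complexes space nucleosomes evenly, and ACF1 has been linked to repression, replication through heterochromatin and DNA repair in other cells. How mESC transcription responds when it is removed is the question of the comparison.

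Total counts were 27411057 and 26803928 in the WT libraries of batch E and 27095077 and 28315242 in Acf1Δ, within the range of 13417755 to 36721585 over the 24 libraries. Levels are given as normalised CPM, counts per 1000000 after scaling with TMM factors, and the floor of 3 counts lay between 0.106 and 0.112 normalised CPM in the 4 libraries. Library 1 is named before library 2 throughout. Replicates correlated with Pearson's r of 0.996 in WT and 0.996 in Acf1Δ across the 15682 genes tested. Differences between replicates exceeded counting noise, with a chi-square per gene of 11.4 across 14598 genes in WT and 19.6 across 14386 in Acf1Δ. The cells expressed the pluripotency factors of mESCs in both groups: Nanog was at 487 and 485.5 normalised CPM in WT and at 434 and 424 in Acf1Δ, and Pou5f1 was at 989.8 or more in all 4 libraries.

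Baz1a, on chromosome 12 from 54892989 to 55014371 in mm10 (GRCm38), was at 61.8 and 62.9 normalised CPM in WT and at 18.96 and 18.91 in Acf1Δ. Both Acf1Δ libraries lay below all 11 WT libraries of the study, which were between 61.8 and 80.5. Low Baz1a RNA was not particular to Acf1Δ, since the line lacking Bptf was at 23.96 ± 0.605 (SD, n = 2), a log2 fold change of -1.74. In Acf1Δ the log2 fold change was -1.72 (SE 0.068, edgeR adjusted p = 2.73e-16), a ratio of 0.304 to WT, and the counts do not show which exons these came from.

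The partners of ACF1 shifted little. Smarca5, which encodes its ATPase, was at 377 and 332 normalised CPM in WT and at 294 and 294 in Acf1Δ, a log2 fold change of -0.27 (edgeR adjusted p = 0.00442). Both Acf1Δ libraries were below both WT libraries, but within the range of all 11 WT libraries. Chrac1 (log2 fold change 0.09, edgeR adjusted p = 0.449) and Pole3 (0.09, edgeR adjusted p = 0.299) did not pass the test. Of the 15 ISWI ATPases and partner subunits tested, 3 rose and 6 fell at an adjusted p under 0.01, against 31.8% of all genes tested. The other decreases were Baz2b (-0.70), Rsf1 (-0.54), Baz2a (-0.42) and Bptf (-0.39), which encode subunits of other ISWI complexes, and the increases were Rbbp4 (0.47), Pole4 (0.35) and Smarca1 (0.30). Bptf was at 262 and 301 normalised CPM in WT and at 256 and 173 in Acf1Δ, so its decrease came mostly from library 2. Without library 2 of Acf1Δ, 3 members of the list fell, and without library 2 of WT batch E 1 rose. With an offset for gene width, described below, Smarca5 (-0.14, edgeR adjusted p = 0.153) and Bptf (-0.16, edgeR adjusted p = 0.0309) did not pass.

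The call used below for a differentially expressed gene (DEG) is an adjusted p under 0.01 in edgeR's quasi-likelihood test together with more than 2-fold change. Of 15682 genes tested, 178 rose (1.14%) and 520 fell (3.32%), in all 698 genes (4.45%). The Acf1Δ libraries lay beyond both WT libraries in each of the 698, a pattern found for 63.2% of all genes tested (30% higher and 33.3% lower). They lay beyond all 11 WT libraries of the study in 310 of them, 44 higher and 266 lower, and in 11.2% of all genes tested (5.03% higher and 6.21% lower). The increased DEGs were weakly expressed, at a median of 1.55 normalised CPM in WT, and 29 of them had a mean under 1 normalised CPM in both groups. The decreased DEGs had a median of 2.65 normalised CPM in WT, against 18.8 for all genes tested, and 99 of them were under 1 in both groups. At a mean of at least 100 counts, 78 DEGs rose and 169 fell. Without library 1 of WT batch E, 110 genes rose more than 2-fold. In a test against a 2-fold change itself (edgeR's glmTreat) 20 genes rose and 95 fell.

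**Figure D1:**
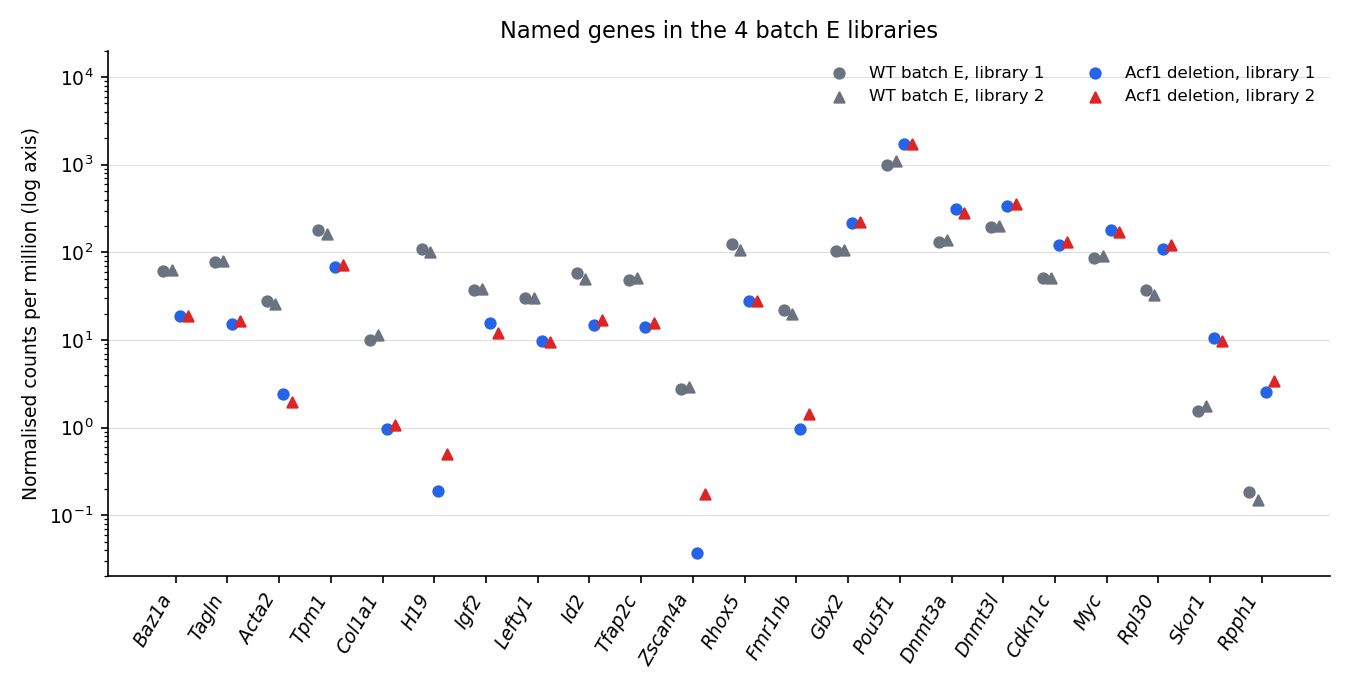
Levels of 22 genes in normalised CPM (log axis) in the 4 batch E libraries. Each point is 1 library: grey for WT, blue for library 1 and red for library 2 of Acf1Δ. For each gene shown the Acf1Δ points lie wholly above or wholly below the WT points, with H19 and Acta2 among those far below and Skor1 and Rpph1 among those above.

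Several genes of the contractile actin cytoskeleton fell, and others did not pass the test. The list of YAP, SRF and contractile genes holds targets of SRF, a transcription factor of actin cytoskeleton genes, and of YAP, the effector of the Hippo pathway. Of its 21 listed genes 19 passed the filter on low counts, 11 of these fell, 6 of them more than 2-fold, and 0 rose in edgeR (0 at an unadjusted p under 0.05, and 0 in DESeq2). The median log2 fold change was -0.54 against -0.03 for all genes. Its median was -0.40 in library 1 and -0.69 in library 2 of Acf1Δ, and 10 to 13 members fell when each library of batch E was left out in turn. Across all genes tested 16.7% fell at this threshold and 15.1% rose.

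Acta2, which encodes smooth muscle actin, was at 27.6 and 25.7 normalised CPM in WT and at 2.39 and 1.94 in Acf1Δ. Its log2 fold change was -3.62 (SE 0.16, edgeR adjusted p = 1.71e-15), and both Acf1Δ libraries lay below all 11 WT libraries, which ranged from 4.13 to 47.9. Tagln, which encodes the actin-bundling protein transgelin, was at 77.9 and 79.6 in WT and at 15.1 and 16.6 in Acf1Δ (log2 fold change -2.31, SE 0.085, edgeR adjusted p = 5.22e-17). WT libraries of other batches reached down to 12.8 for Tagln, so its Acf1Δ levels were outside the WT range of batch E but not of the study. Tpm1, a tropomyosin that lies along actin filaments, fell from 179 and 163.5 to 67.2 and 72.6 (-1.29, SE 0.074, edgeR adjusted p = 5.53e-13).

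The remaining decreases of this list graded from large to small. Cnn1, which encodes calponin, had a log2 fold change of -1.998, Axl, a receptor tyrosine kinase, of -1.49, Myl9, a myosin light chain, of -1.15 and Tpm2 of -0.90. Ccn2, a secreted YAP target, fell by 0.70 on the log2 scale, the focal adhesion gene Vcl by 0.54, Cnn2 by 0.37 and Actn1 by 0.25. Srf itself did not pass (-0.15, edgeR adjusted p = 0.118), and neither did the YAP targets Ccn1 (-0.13, edgeR adjusted p = 0.114) and Ankrd1 (-0.19, edgeR adjusted p = 0.197).

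SRF binds a DNA element known as the CArG box, and the promoters of 3 members that fell hold its strict form next to the start of the gene. The bases upstream of Myl9 (chr2:156775214-156775407, plus strand), Vcl (chr14:20929148-20929382, plus strand) and Cnn2 (chr10:79988350-79988599, plus strand) are shown to set these elements beside the values above, from RefSeq on GRCm38.p6. Capitals mark the CArG box, at 105 to 96 bases before the start of the gene in Myl9, 212 to 203 in Vcl and 56 to 47 in Cnn2.
Myl9: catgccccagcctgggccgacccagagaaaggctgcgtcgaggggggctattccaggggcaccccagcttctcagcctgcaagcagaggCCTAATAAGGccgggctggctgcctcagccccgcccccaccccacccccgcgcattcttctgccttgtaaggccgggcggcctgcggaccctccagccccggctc
Vcl: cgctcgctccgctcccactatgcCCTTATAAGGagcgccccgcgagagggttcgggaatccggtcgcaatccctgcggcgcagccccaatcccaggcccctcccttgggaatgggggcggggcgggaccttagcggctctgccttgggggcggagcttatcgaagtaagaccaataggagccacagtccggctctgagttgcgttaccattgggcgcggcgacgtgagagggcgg
Cnn2: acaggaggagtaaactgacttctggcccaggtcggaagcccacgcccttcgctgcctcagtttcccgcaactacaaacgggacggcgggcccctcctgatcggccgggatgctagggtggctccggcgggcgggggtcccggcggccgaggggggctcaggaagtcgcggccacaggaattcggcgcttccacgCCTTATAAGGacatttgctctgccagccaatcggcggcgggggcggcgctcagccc
The pattern of the strict box reads the same on both strands, so both were covered by the search, in windows from 250 bases before to 50 after each start. Of the 19 members 16 had a window, and 4 of these held a box: Cnn2, Myl9, Srf and Vcl. Srf did not pass the test. The windows of Acta2, Cnn1, Axl and Tpm1 held none, and their decreases were larger than those of the 3 shown. Tagln had no window. In all, 1.57% of the 12223 tested genes with a window and 1.63% of the 32851 windows held a box. The list was made of SRF and YAP targets, so its count is no result about these data. A match is a description of the letters in these windows and shows no binding.

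Among markers of fibroblasts, the decreases were in Acta2, already counted among the contractile genes, and in collagens. Of 14 fibroblast markers 9 passed the filter, 5 of these fell and 0 rose in edgeR (0 at an unadjusted p under 0.05, and 0 in DESeq2). Their summed level was 71.4 and 71.0 normalised CPM in WT and 28.4 and 26.4 in Acf1Δ, and without Acta2 it was 43.76 and 45.36 in WT and 26.04 and 24.46 in Acf1Δ. The other 4 decreases, in Col1a1, Col1a2, Col3a1 and Col5a1, are counted again in the collagen list. Col1a1, a chain of type I collagen, was at 10.1 and 11.3 in WT and at 0.97 and 1.06 in Acf1Δ, a log2 fold change of -3.39 (SE 0.23, edgeR adjusted p = 1.11e-11), below all 11 WT libraries. Col3a1 had 44 and 19 counts in WT and 0 and 2 in Acf1Δ, a ratio of 32.1 (95% counting interval 8.52 to 271). Col1a2 had a log2 fold change of -2.49 and Col5a1 of -0.78. The fibroblast surface marker Thy1 had a log2 fold change of 0.12 (edgeR adjusted p = 0.326), at 10.6 and 10.6 normalised CPM in WT and 11.4 and 11.5 in Acf1Δ.

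Fewer cells of a type and less RNA per cell cannot be told apart in bulk libraries, here or in the comparisons that follow, and the part of fibroblast-like cells in the contractile decrease was not tested. Over the 65 tested of 76 collagens, laminins and integrins 18 fell, 10 of them more than 2-fold, and 5 rose, with a median log2 fold change of -0.29. The increases numbered 3 without library 1 and 8 without library 2 of WT batch E, and 9 with an offset for gene width. Itgb3, an integrin subunit, fell from 8.29 and 7.41 normalised CPM to 3.54 and 3.53 (-1.15, edgeR adjusted p = 1.41e-07). Without library 2 of Acf1Δ, 12 members of that list fell.

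The imprinted region on distal chromosome 7 held the gene with the smallest p-value of all tested. H19, the noncoding RNA expressed from the maternal chromosome, lies at 142575530 to 142578146 on chromosome 7 and was at 110 and 102 normalised CPM in WT and at 0.187 and 0.494 in Acf1Δ. Its log2 fold change was -8.24 (SE 0.14, edgeR adjusted p = 1.29e-24), and all 11 WT libraries lay between 94.3 and 191. Igf2, the paternally expressed growth factor that shares its enhancers, fell from 37.5 and 37.8 to 15.75 and 11.9 (-1.45, SE 0.11, edgeR adjusted p = 1.56e-10). Cdkn1c, a maternally expressed inhibitor of cyclin-dependent kinases further along the cluster, rose from 51.0 and 50.8 to 122 and 130 (1.31, SE 0.085, edgeR adjusted p = 6.32e-12). Both its Acf1Δ libraries were above both WT libraries of batch E but within the range of all 11. Of the 19 members of the list tested 4 fell, namely H19, Mir675, Igf2 and Cd81, and 2 rose, Cdkn1c and Nap1l4. The other 13, Phlda2 and Kcnq1ot1 among them, did not pass. In all 31.6% of the list passed, 21.1% down and 10.5% up, against 31.8%, 16.7% and 15.1% of all genes tested. Cdkn1c was the only increase without library 1 or 2 of WT batch E or library 2 of Acf1Δ, with an offset for gene width, with the replicate number as a block, and with only the batch E libraries.

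Mir675, a microRNA gene inside H19, had 16 and 34 counts in WT and 0 in both Acf1Δ libraries, at least 8.49-fold lower (edgeR adjusted p = 2.13e-05). Its row counts longer RNA over the hairpin, since libraries of polyadenylated RNA do not hold mature microRNAs. The mature sequences it encodes are shown because H19 RNA is their source, from RefSeq on GRCm38.p6, with the seed (bases 2 to 8) in capitals. They lie on the minus strand at chr7:142577112-142577133 (5p) and chr7:142577078-142577099 (3p).
mmu-miR-675-5p: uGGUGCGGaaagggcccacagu
mmu-miR-675-3p: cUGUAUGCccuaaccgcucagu
The 2 arms have different seeds.

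At the Dlk1-Dio3 cluster on chromosome 12, 5 of 6 tested genes rose and 0 fell in edgeR (1 at an unadjusted p under 0.05, and 0 in DESeq2), with a median log2 fold change of 0.64 (0.65 in library 1 and 0.63 in library 2). Rian, a maternally expressed noncoding RNA, rose from 199.9 and 215 normalised CPM to 338 and 328 (0.68, SE 0.061, edgeR adjusted p = 2.31e-09). Meg3, the noncoding RNA at the head of the same transcription unit, was at 90.9 and 132 in WT and at 167 and 179.7 in Acf1Δ (0.64, edgeR adjusted p = 0.00136). The paternally expressed Dlk1 (0.64) and Rtl1 (1.25) rose as well, and Mirg had a log2 fold change of 0.45. Rtl1 overlaps RNA of the opposite strand and strand use in the counting is not stated, so its value is uncertain. Dio3 was at -0.78 (edgeR adjusted p = 0.0215). Without library 1 of WT batch E, 2 of these genes rose, and without library 2 of Acf1Δ 3 did.

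Among the 34 other imprinted genes tested 12 fell and 2 rose (4 with an offset for gene width). Peg3, a paternally expressed zinc finger gene, fell from 72.2 and 82.9 normalised CPM to 46.65 and 32.6 (-0.97, edgeR adjusted p = 4.17e-08), and its neighbour Usp29 by 1.72 on the log2 scale. Gab1, a signaling adaptor, had a log2 fold change of -0.63, and Peg13, a noncoding RNA, rose from 5.01 and 5.26 to 13.6 and 11.01 (1.26, edgeR adjusted p = 2.38e-07), above all 11 WT libraries.

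**Figure D2:**
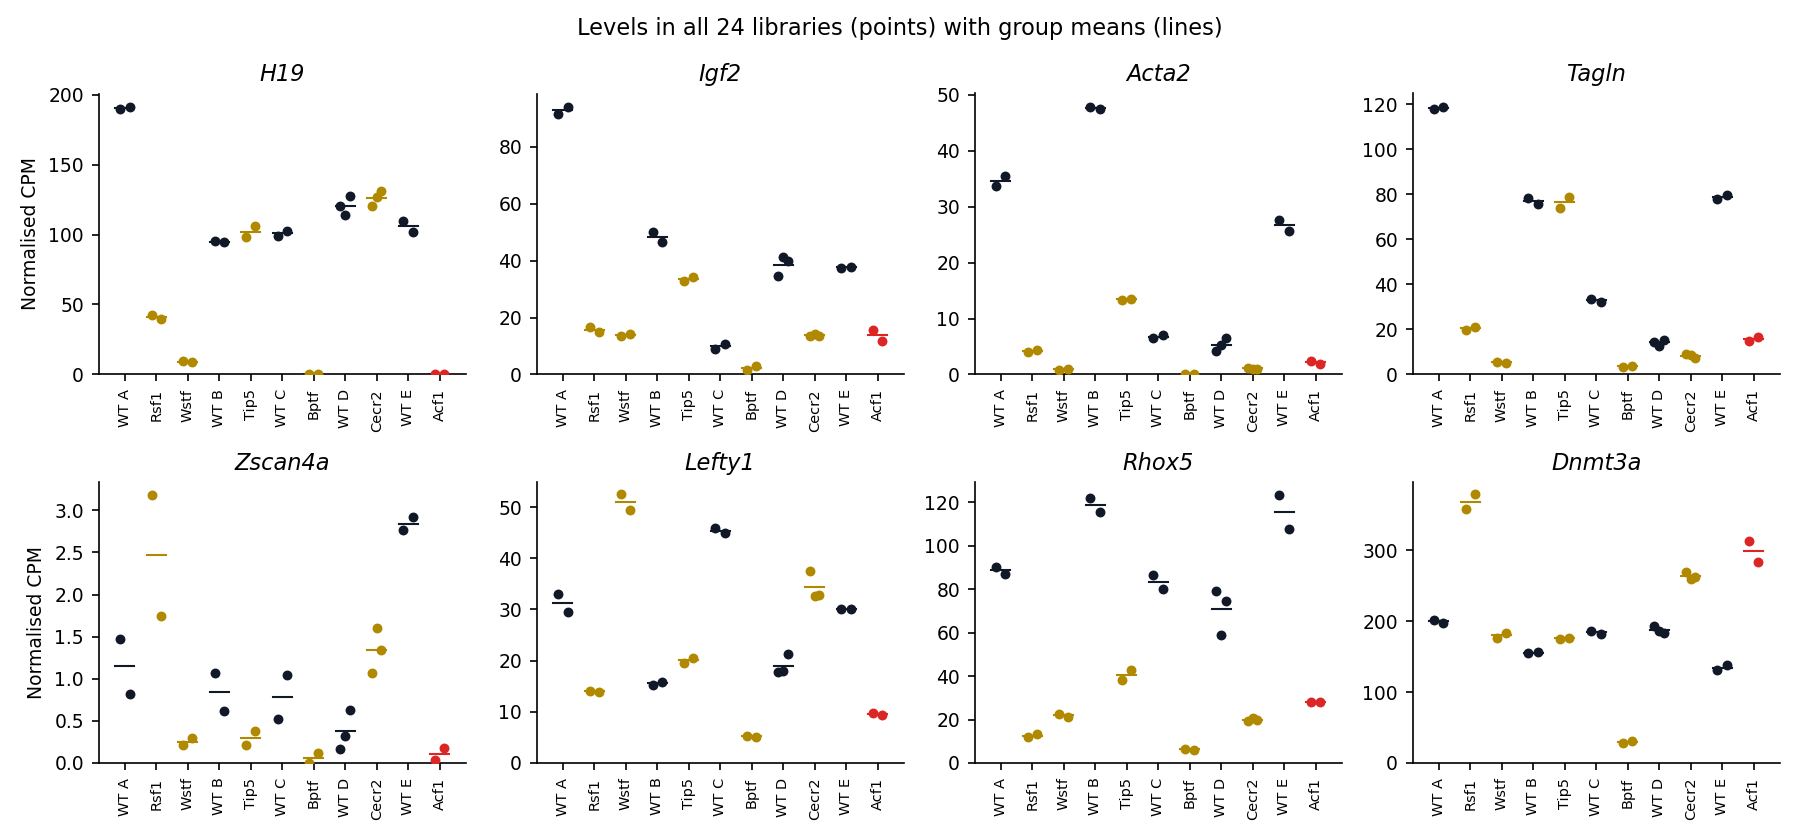
Normalised CPM of 8 genes in all 24 libraries, grouped by genotype and batch. Points are libraries and short lines are group means: black for WT, ochre for the other deletion lines and red for Acf1Δ. H19 is near 0 in Acf1Δ while all 11 WT libraries lie at 94.3 or above.

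Genes of the 2-cell-like state, a rare state of mESCs that resembles the early embryo, were the list with the lowest median. Of 24 genes listed 18 were in the table and 12 passed the filter. Of these 9 fell, each more than 2-fold, and 1 rose (6 fell with DESeq2 and 3 with a stricter filter on low counts). The median log2 fold change was -3.58, or -2.64 with the 3 members at 0 in Acf1Δ set to their bounds, and between 7 and 9 members fell when each library was left out. Zscan4a, a member of the zinc finger family that marks this state, annotated by RefSeq as a transcribed pseudogene, had 2.76 and 2.93 normalised CPM in WT and 0.037 and 0.18 in Acf1Δ (log2 fold change -4.65, SE 0.56, edgeR adjusted p = 2.71e-07). The 11 WT libraries spanned 0.171 to 2.93, with those of batch E the highest, and library 2 of Acf1Δ was inside that span. Usp17lb, a deubiquitinase gene, had 22 and 9 counts in WT and 0 in both Acf1Δ libraries, at least 5.25-fold lower. Members of the Zscan4 and Usp17l families are near-identical copies, so how reads were split among them is uncertain. Dppa4, which encodes an activator of this program and is expressed in most mESCs, rose by 0.40 on the log2 scale, and Dppa2 did not pass (-0.10, edgeR adjusted p = 0.341).

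Lineage markers fell in several lists. Of 14 tested of 16 trophectoderm and simple keratin genes 8 fell and 0 rose in edgeR (2 at an unadjusted p under 0.05, and 0 in DESeq2), with a median log2 fold change of -0.58 and similar medians in libraries 1 (-0.50) and 2 (-0.54). Tfap2c, a transcription factor of trophectoderm and germ cells, fell from 47.9 and 50.8 normalised CPM to 14.2 and 15.4 (-1.74, SE 0.087, edgeR adjusted p = 4.67e-14), below all 11 WT libraries. Krt7 had a log2 fold change of -3.47, Gata3 of -1.89, Krt19 of -1.35 and Krt18 of -0.59. Leaving out library 2 of Acf1Δ left 5 decreases.

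Of 18 tested of 22 primitive streak and mesoderm genes 5 fell and 1 rose, and 2 or 3 fell and 0 or 1 rose when any 1 library was left out. Lefty1, a secreted inhibitor of Nodal, fell from 30.2 and 30.1 normalised CPM to 9.85 and 9.42 (-1.65, SE 0.095, edgeR adjusted p = 6.34e-13), and Lefty2 from 21.3 and 21.0 to 8.21 and 9.14 (-1.28, edgeR adjusted p = 1.66e-11). Both inhibitors lay below all 11 WT libraries in Acf1Δ, and Nodal, the 1 increase, had a log2 fold change of 0.23 (edgeR adjusted p = 0.0093). That increase was lost in 3 of the 4 fits without 1 library, and also with RLE or library-size scaling, the stricter filter, the replicate block, the width offset or only the batch E libraries. Gsc had 11 and 9 counts in WT and 1 and 2 in Acf1Δ, a ratio of 6.79 (95% counting interval 2.01 to 35.7). Of 13 tested of 18 neural genes 5 fell and 2 rose, and 5 fell and between 0 and 2 rose when each library was left out. Neurod1, a neurogenic factor, had a log2 fold change of -1.34, the intermediate filament gene Nes of -1.23, Pax6 of -1.34 and the adhesion molecule gene Ncam1 of -0.72.

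Targets of BMP signaling split. Id2 fell from 57.4 and 49.1 normalised CPM to 14.7 and 16.7 (-1.76, SE 0.10, edgeR adjusted p = 8.6e-13) and Id4 by 1.08 on the log2 scale, whereas Id1 (0.43) and Id3 (0.44) rose, and all 4 encode inhibitors of helix-loop-helix factors. Bmp4, the ligand, rose from 57.9 and 60.8 to 103.5 and 110.3 (0.85, SE 0.069, edgeR adjusted p = 3.95e-10). The list of Nodal and BMP targets had 4 increases and 4 decreases among 17 members tested, of which 2 increases were left without library 1 of WT batch E.

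Pluripotency genes moved in both directions and mostly by little. Of 24 core and naive pluripotency genes 8 rose and 7 fell, with a median log2 fold change of -0.03. Gbx2, a LIF-responsive transcription factor, was at 103 and 105 normalised CPM in WT and at 214 and 222 in Acf1Δ (1.07, SE 0.076, edgeR adjusted p = 3.54e-11), above all 11 WT libraries. Pou5f1, which encodes OCT4, was at 989.8 and 1099 in WT and at 1726 and 1714 in Acf1Δ (0.72, SE 0.069, edgeR adjusted p = 6.4e-09), again above all 11. Klf5 fell from 576.5 and 522 to 376 and 339 (-0.62), and Pecam1, Tcl1 and Fbxo15 fell by 0.85, 0.72 and 0.71 on the log2 scale. Dppa3, a maternal factor that protects imprints, was low in WT, at 4.9 and 4.78, and fell to 0.784 and 1.38 (-2.15, edgeR adjusted p = 1.24e-07). Klf4, Esrrb, Tfcp2l1 and Tbx3 were among the 9 that did not pass, and with only the batch E libraries 3 of the list rose.

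Of 18 formative and primed genes 4 rose and 8 fell, and 2 rose without library 1 of WT batch E. Dnmt3a, a de novo DNA methyltransferase, rose from 130.5 and 138 normalised CPM to 313 and 284 (1.15, SE 0.059, edgeR adjusted p = 5.57e-14), above all 11 WT libraries. Etv4, a target of FGF signaling, had a log2 fold change of 0.94, and Zic2 (-1.79), Zic5 (-1.499) and Otx2 (-0.69), transcription factors of the epiblast, fell. Dnmt3l, the cofactor of DNMT3A, rose from 194 and 201 to 336 and 358 (0.82, SE 0.056, edgeR adjusted p = 1.66e-11), while Dnmt3b (-0.04, edgeR adjusted p = 0.663) and the maintenance enzyme gene Dnmt1 (-0.08, edgeR adjusted p = 0.269) did not pass. Trim28, the KRAB zinc finger corepressor, was at 1964 and 2152 in WT and at 2878 and 2910 in Acf1Δ (0.49, edgeR adjusted p = 2.96e-08), and Zfp57, which recruits it to imprints, had a log2 fold change of 0.48.

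Signaling targets that rose included those of Wnt and FGF. Of 18 Wnt targets 7 rose and 2 fell, with a median of 0.31 (0.33 in library 1, 0.205 in library 2), and 5 or 6 rose and 0 or 1 fell when any 1 library was left out. Myc, a growth regulator that also responds to LIF, rose from 85.3 and 90.9 normalised CPM to 181.5 and 169 (0.99, SE 0.067, edgeR adjusted p = 1.15e-11). Axin2 (0.89) and Notum (0.93), feedback inhibitors of Wnt, and Cdx1 (1.14) rose as well. Spry4 (0.72) and Dusp6 (0.60), feedback inhibitors of FGF, rose within a list of 20 early response genes of which 6 rose and 3 fell, with 1 decrease left without library 2 of Acf1Δ.

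**Figure D3:**
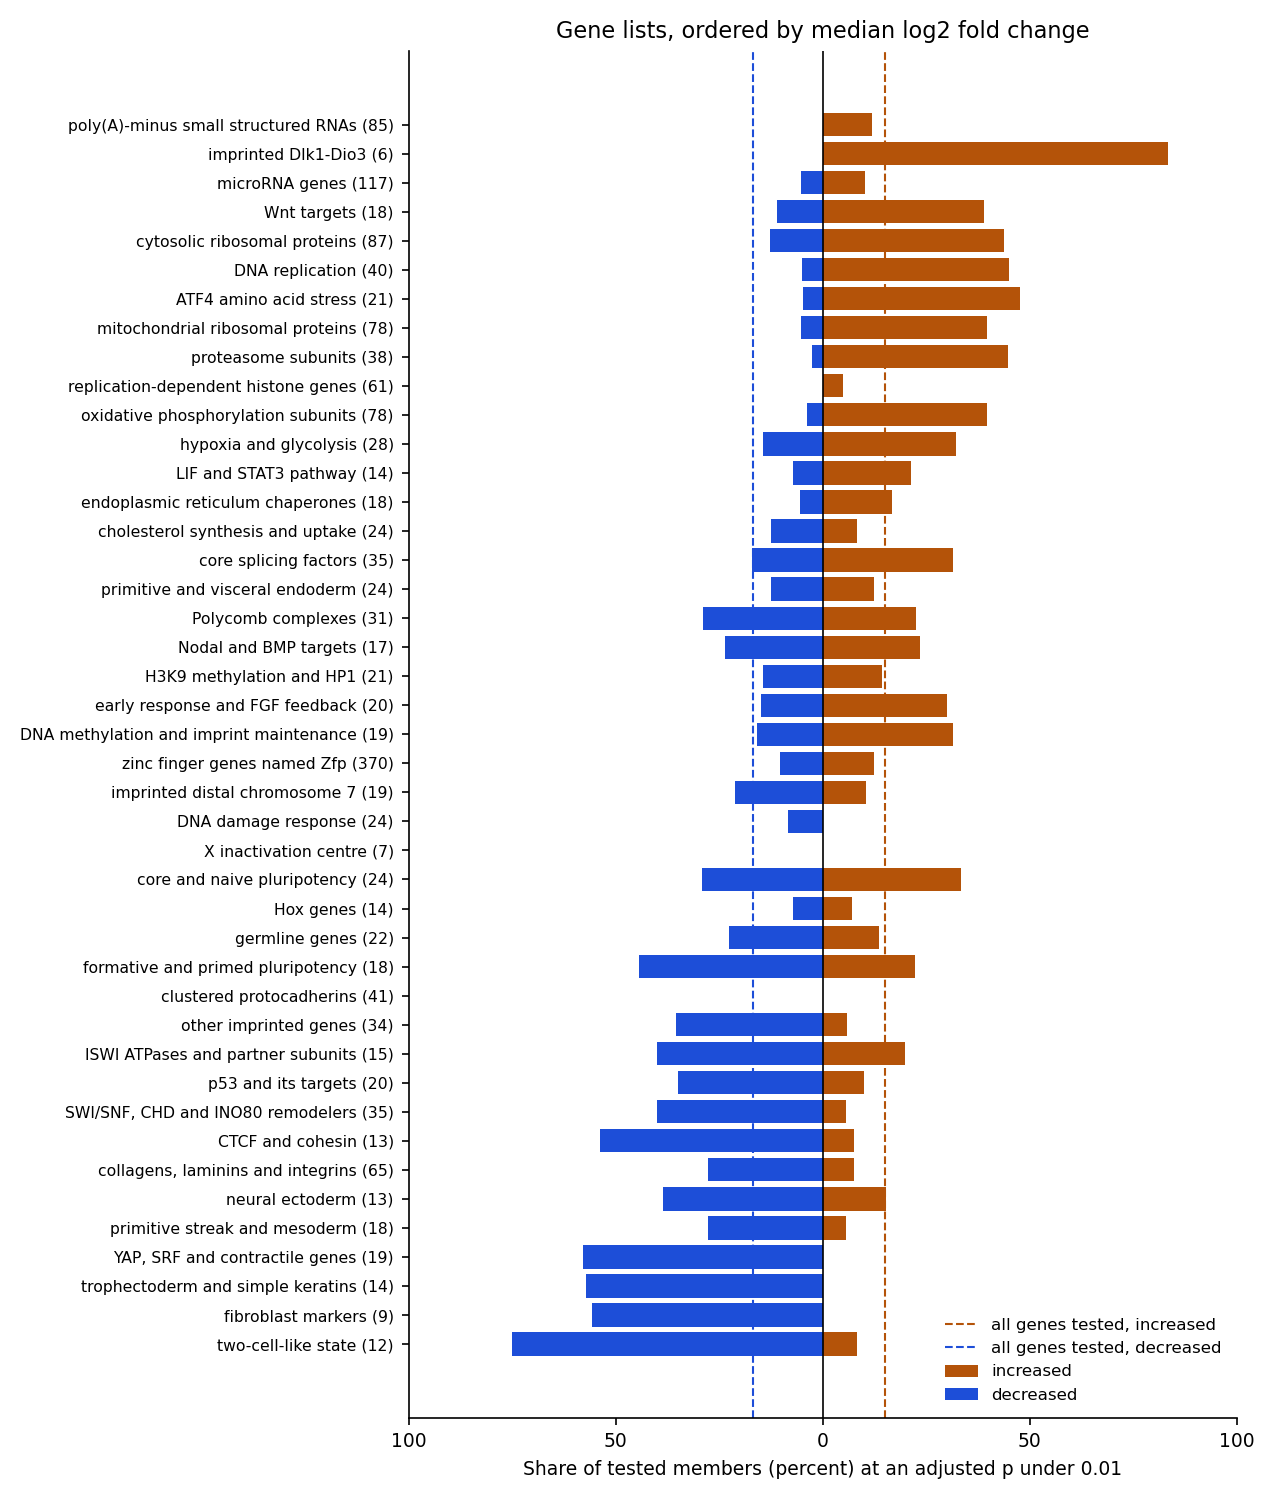
Share of the tested members of each gene list, in percent, that rose (brown, to the right) or fell (blue, to the left) at an adjusted p under 0.01. Lists are ordered by median log2 fold change with the number tested in parentheses, and dashed lines give the shares over all genes tested, 15.1% up and 16.7% down. The 2-cell-like, fibroblast, trophectoderm and contractile lists extend furthest down, and the Dlk1-Dio3 list furthest up.

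Lists of housekeeping machinery showed many small increases. Cytosolic ribosomal protein genes had 38 increases and 11 decreases among 87, mitochondrial ribosomal protein genes 31 and 4 among 78, and oxidative phosphorylation subunits 31 and 3 among 78. Proteasome subunits had 17 increases and 1 decrease among 38, and DNA replication genes 18 and 2 among 40. The medians of these lists were between 0.17 and 0.25 on the log2 scale. In the ribosomal, mitochondrial and proteasome lists the median was larger in library 2 of Acf1Δ than in library 1, at 0.34 against 0.14 for the cytosolic ribosomal genes and at 0.30 against 0.08 for the proteasome. For the replication list the medians were 0.17 in library 1 and 0.22 in library 2. Without library 2, 26 cytosolic and 18 mitochondrial ribosomal protein genes and 10 proteasome genes rose, and without library 2 of WT batch E 11 proteasome genes did. With an offset for gene width the proteasome list had 13 increases and 5 decreases and the oxidative phosphorylation list 29 and 9. With only the batch E libraries in the fit 16 mitochondrial ribosomal protein, 21 oxidative phosphorylation, 6 proteasome and 7 replication genes rose. The 11 decreases of cytosolic ribosomal protein genes were 5 without library 1 of WT and 4 without library 1 of Acf1Δ, and the decreases of the other 4 lists ranged from 0 to 6 as libraries were left out.

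Rpl30, which encodes a protein of the large ribosomal subunit, was at 37.4 and 32.2 normalised CPM in WT and at 109 and 122 in Acf1Δ (1.73, SE 0.092, edgeR adjusted p = 1.52e-13), above all 11 WT libraries. Ribosomal protein genes have many processed pseudogenes, so reads of such a gene may be split among copies. Ndufa4 (1.03) and Atp5e (1.21), of the respiratory chain, Snrpg (1.04), of the spliceosome, Psmb4 (0.73), of the proteasome, and Rpa2 (0.62), of the replication protein that coats single strands, also rose. Genes of amino acid stress downstream of ATF4 rose in 10 of 21 cases with 1 decrease, at a median of 0.21, and the 2 libraries gave 0.24 and 0.19. Asns, asparagine synthetase, rose from 415.5 and 371.5 to 645 and 732 (0.81, SE 0.064, edgeR adjusted p = 2.59e-10), above all 11 WT libraries. Without library 1 of WT batch E, 6 of the 21 rose.

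Opposite to these, genes of p53 (7 decreases and 2 increases among 20, median -0.19), of SWI/SNF, CHD and INO80 remodelers (14 and 2 among 35, median -0.20) and of CTCF and cohesin (7 and 1 among 13, median -0.23) held more decreases than increases. Ccng1 and Trp53inp1, p53 targets, fell by 0.57 and 0.67 on the log2 scale, while Trp53 did not pass (0.14, edgeR adjusted p = 0.19). Smc1a and Rad21, of the cohesin ring, had log2 fold changes of -0.45 and -0.33. Without library 2 of Acf1Δ the decreases numbered 6 among remodelers and 3 in CTCF and cohesin, while 9 remodelers fell without library 2 of WT and 3 CTCF and cohesin genes without library 1 of WT. Increases in the 3 lists ranged from 0 to 3 as libraries were left out. In a fit of only the batch E libraries 7 remodeler, 1 CTCF and cohesin and 5 p53 genes fell. The remodeler and the CTCF and cohesin lists hold wide genes, with median widths of 7930 and 6623 bases. Of the 41 clustered protocadherins tested 0 passed in edgeR (1 at an unadjusted p under 0.05, and 0 in DESeq2), although both Acf1Δ libraries lay below both WT libraries in 34, against 33.3% of all genes tested, and reads of their shared exons may be split among them.

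Several of the largest increases were in RNAs that lack poly(A) tails, at low levels. Of 85 tested of 123 small structured RNA genes 10 rose (11.8%), each more than 2-fold, and 0 fell in edgeR (2 at an unadjusted p under 0.05, and 0 in DESeq2). Of all genes tested 15.1% rose at any size and 1.14% more than 2-fold. Rpph1, the RNA of ribonuclease P, was at 0.184 and 0.148 normalised CPM in WT and at 2.58 and 3.39 in Acf1Δ (4.13, SE 0.32, edgeR adjusted p = 1.77e-10). Rmrp, the RNA of the related ribonuclease MRP, was at 0.037 and 0.11 in WT and at 0.672 and 2.33 in Acf1Δ (4.27, edgeR adjusted p = 2.53e-05). In the 4 libraries of batch C, WT and Bptf, Rpph1 was at 3288 to 4824, and in the other 20 libraries at 3.39 or less, so the batches differed in how much of such RNA they held. Rmrp reached 645 in WT, and without a batch term both would be lower in Acf1Δ. The part of library preparation in these increases was not tested. Without library 2 of Acf1Δ 4 of the list rose, without library 1 of WT batch E 6, and with an offset for gene width 3.

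MicroRNA gene rows, read as RNA over each hairpin, rose in 12 and fell in 6 of the 117 tested of 1141. These shares of 10.3% and 5.13% were below the 15.1% and 16.7% of all genes tested. Within the miR-290 cluster of mESCs on chromosome 7, Mir295 was at 0.037 and 0.30 normalised CPM in WT and at 0.90 and 2.47 in Acf1Δ (3.31, edgeR adjusted p = 0.000208), and Mir293 at 0 and 0.26 against 0.56 and 0.78 (2.33, edgeR adjusted p = 0.00957). Mir290a, in the same cluster, differed in the other direction (-2.20, edgeR adjusted p = 0.00266). The mature forms whose hairpins rose are shown with the seed in capitals, from RefSeq on GRCm38.p6, at chr7:3220390-3220411 (miR-293) and chr7:3220815-3220837 (miR-295), both on the plus strand.
mmu-miR-293-3p: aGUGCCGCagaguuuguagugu
mmu-miR-295-3p: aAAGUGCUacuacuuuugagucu
Their seeds differ. Without library 1 of WT batch E 6 of these genes rose and 2 fell, without library 2 of Acf1Δ 5 rose and 1 fell, and without library 1 of Acf1Δ 12 rose and 3 fell. With an offset for gene width 4 microRNA genes rose and 14 fell, which reverses the balance of the list. Of the 117 genes 102 matched a mature sequence.

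A further pair of genes rose, of which Lars2, a mitochondrial leucyl-tRNA synthetase gene, was chosen after its values were seen. Mir6236 was at 6.67 and 5.55 normalised CPM in WT and at 47.4 and 94.4 in Acf1Δ (3.54, edgeR adjusted p = 0.000141), and Lars2 at 54.2 and 54.6 against 228 and 348 (2.40, edgeR adjusted p = 0.000197). In both the level in library 2 was the highest of the 4 and the groups did not overlap, but both stayed inside what the 11 WT libraries spanned.

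Gm13315, a transcribed pseudogene, had 0 counts in both WT libraries and 6 and 14 in Acf1Δ, at least 3.24-fold higher. Further increases included Skor1, a transcriptional corepressor of neurons, which rose from 1.55 and 1.74 normalised CPM to 10.5 and 9.74 (2.62, SE 0.19, edgeR adjusted p = 4.71e-11), although WT libraries of other batches reached 17.4. Gm12191, a transcribed pseudogene of 808 bases that may share reads with its parent gene, rose from 28.4 and 24.03 to 97.0 and 106 (1.95, edgeR adjusted p = 5.53e-13), Akr1b3, aldose reductase, from 26.9 and 25.7 to 72.4 and 75.7 (1.49, edgeR adjusted p = 5.5e-14), and Mt2, a metallothionein, from 52.2 and 44.8 to 121 and 138 (1.42, edgeR adjusted p = 4.97e-13). Among the widest genes Megf11 rose from 1.84 and 2.92 to 8.77 and 7.80 (1.79), and Dsp, which encodes desmoplakin of cell junctions, fell from 61.1 and 71.4 to 24.7 and 19.7 (-1.58, edgeR adjusted p = 2.51e-12).

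Of 552 genes tested on the X chromosome 139 fell and 43 rose, 36 and 1 of them more than 2-fold, and the median log2 fold change was -0.15. It was -0.09 in library 1 and -0.18 in library 2. Of the 19 autosomes 9 had more decreases than increases and 10 had more increases. They ranged from 118 decreases against 48 increases on chromosome 12 to 99 against 157 on chromosome 17, and chromosome 18 had a median of -0.13. Rhox5, a homeobox gene of the reproductive cluster, fell from 123.5 and 107.6 normalised CPM to 27.95 and 28.1 (-2.04, SE 0.099, edgeR adjusted p = 2.58e-14), Rhox13 had a log2 fold change of -2.29 and Rhox9 of -3.73. Fmr1nb, a testis antigen gene, fell from 21.8 and 20.03 to 0.97 and 1.45 (-4.10, SE 0.16, edgeR adjusted p = 2.73e-16). Klhl13, named after its values were seen, encodes a ubiquitin ligase adaptor and fell from 144 and 139 to 13.1 and 14.4 (-3.37, edgeR adjusted p = 8.19e-22). All of these lay below all 11 WT libraries. Log2 fold changes in the other 5 lines were also below 0 for Klhl13 (-3.29 to -1.45), Rhox5 (-3.72 to -1.55) and Rhox13 (-2.50 to -0.58). Xist, which silences an X chromosome, did not pass (-0.25, edgeR adjusted p = 0.355) and was between 7.72 and 10.4 in the 4 libraries.

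Most genes past the adjusted p differed by less than 2-fold. At an adjusted p under 0.01 without a fold minimum 4985 genes (31.8%) were called, of which 4287 (27.3% of those tested) had at most 2-fold change: 2192 higher (14%) and 2095 lower (13.4%). Their median absolute log2 fold change was 0.44, 1658 of them exceeded 0.5, and the Acf1Δ libraries lay beyond both WT libraries in 4280. They lay beyond all 11 WT libraries in 860. In the range of log2 0.25 to 0.5, 1239 genes rose and 1099 fell, and between 0.5 and 1, 777 rose and 881 fell. With more than 1, decreases were the larger class, 370 against 147 up to 2 and 150 against 31 above. Small shifts came from well-expressed genes, with a median of 42.1 normalised CPM in WT for those that rose and 44.0 for those that fell.

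**Figure D4:**
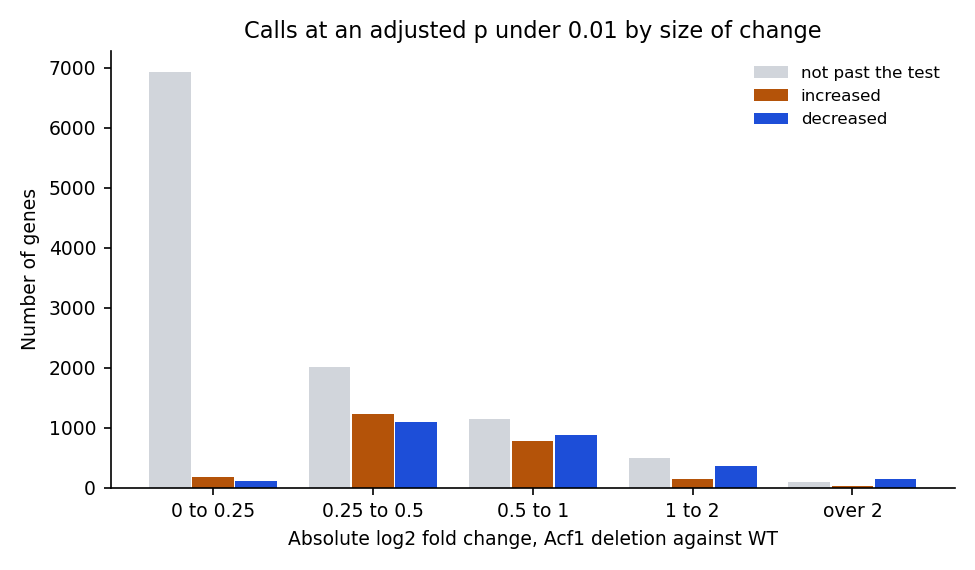
Number of genes (vertical axis) by absolute log2 fold change of Acf1Δ against WT (horizontal axis), split into genes not past the adjusted p (grey), increased (brown) and decreased (blue). Increases and decreases are about even below 1, with 1239 and 1099 between 0.25 and 0.5, and decreases prevail above 1, with 370 against 147 and 150 against 31.

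The small shifts with the smallest p-values were close to 2-fold. Noct, a circadian gene related to deadenylases, rose from 183 and 178 normalised CPM to 331.5 and 322.5 (0.85, SE 0.056, edgeR adjusted p = 7.36e-12), above all 11 WT libraries. Slc7a3, a cationic amino acid transporter, had a log2 fold change of 0.80, Pnp, of purine salvage, of 0.94 and Jpt1 of 0.94. Map4k4, a kinase of the stress pathway, fell from 689.9 and 675.8 to 367 and 319 (-0.99, SE 0.055, edgeR adjusted p = 3.45e-13), below all 11 WT libraries. Fxyd6 (-0.97), Lrrfip1 (-0.90), Ets2 (-0.88) and the membrane protease gene St14 (-0.79) fell as well.

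The number of small shifts depended on the libraries in the fit. With only the 4 batch E libraries in the fit, 1049 rose and 848 fell. Without library 1 of WT batch E 1301 fell, and without library 2 of Acf1Δ 1312 did. Without a batch term 103 rose and 92 fell.

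The small shifts followed the width of the gene, a number of bases given for each gene in the deposited table. Genes that rose by at most 2-fold had a median width of 3470 bases, those that fell 5634, and all genes tested 4025. In the narrowest of 10 equal bins of genes, 56 to 1478 bases wide, 255 rose (16.3%) and 134 fell (8.55%), with a median log2 fold change of 0.12. In the widest bin, 9070 to 123179 bases, 75 rose (4.78%) and 480 fell (30.6%), with a median of -0.20. Genes had a median of 55.75 counts in the narrowest bin and 967 in the widest, so these shares rest on unlike depth. The median log2 fold change declined from bin to bin in between. The slope over all 15682 genes was -0.094 per doubling of width (Spearman's rho -0.21 across genes, which are not independent replicates).

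The 2 Acf1Δ libraries differed in this. Measured as a log2 difference from the mean of the WT libraries of batch E, the medians of the narrowest and widest bins were 0.0045 and -0.076 in library 1, and 0.14 and -0.33 in library 2. The slope was -0.026 per doubling in library 1 and -0.11 in library 2, with rho of -0.08 and -0.32. The libraries of other lines and of WT cells, each against the WT mean of its batch, had slopes from -0.045 to 0.028. Library 1 of Acf1Δ was thus inside that range and library 2 outside it. Without library 2 the slope of the fit was -0.029. A width offset per library took it to -0.0021, and 2460 genes then rose and 1860 fell by at most 2-fold. That offset changed the balance of all calls, 52.3% of which were then increases against 47.5% without it.

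Genomic span and GC content followed the same shifts, with less difference between the libraries. Genes that rose by at most 2-fold spanned a median of 12680 bases in RefSeq, introns included, and those that fell 48290, against 21730 for all. In the shortest of 10 bins by span (42 to 3584 bases) 312 genes rose and 113 fell, and in the longest (120200 to 2390000 bases) 59 rose and 495 fell. The medians of the shortest bin were 0.067 in library 1 and 0.16 in library 2, and those of the longest were -0.16 and -0.33. Across 15672 genes rho with span was -0.30 in the fit, -0.21 in library 1 and -0.38 in library 2. With the GC content of the longest transcript it was 0.22 in the fit and 0.22 in each library, over 14801 genes. In the other 22 libraries rho with span ranged from -0.21 to 0.17 and with GC from -0.39 to 0.39, so for span library 1 lay inside that range and library 2 outside it, and for GC both lay inside.

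In the bin of 10 with the lowest GC content, 31.0 to 41.6%, 89 genes rose and 386 fell, and in the highest, 58.2 to 72.8%, 301 rose and 122 fell. The WT libraries of batch E differed from each other in GC as well, with rho of -0.39 and 0.39 against their own mean, so that the GC relation of the Acf1Δ libraries is set against a mean of unlike libraries. Width, span and GC content are themselves related, and in a joint least-squares fit over 14799 genes the slope was 0.025 per doubling of width, -0.070 per doubling of span and 0.10 per 10 points of GC. In library 1 these slopes were 0.058, -0.047 and 0.098, and in library 2 -0.036, -0.062 and 0.061. The slope on width thus differed in sign between the libraries while those on span and GC had the same sign. The source of these relations was not tested.

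**Figure D5:**
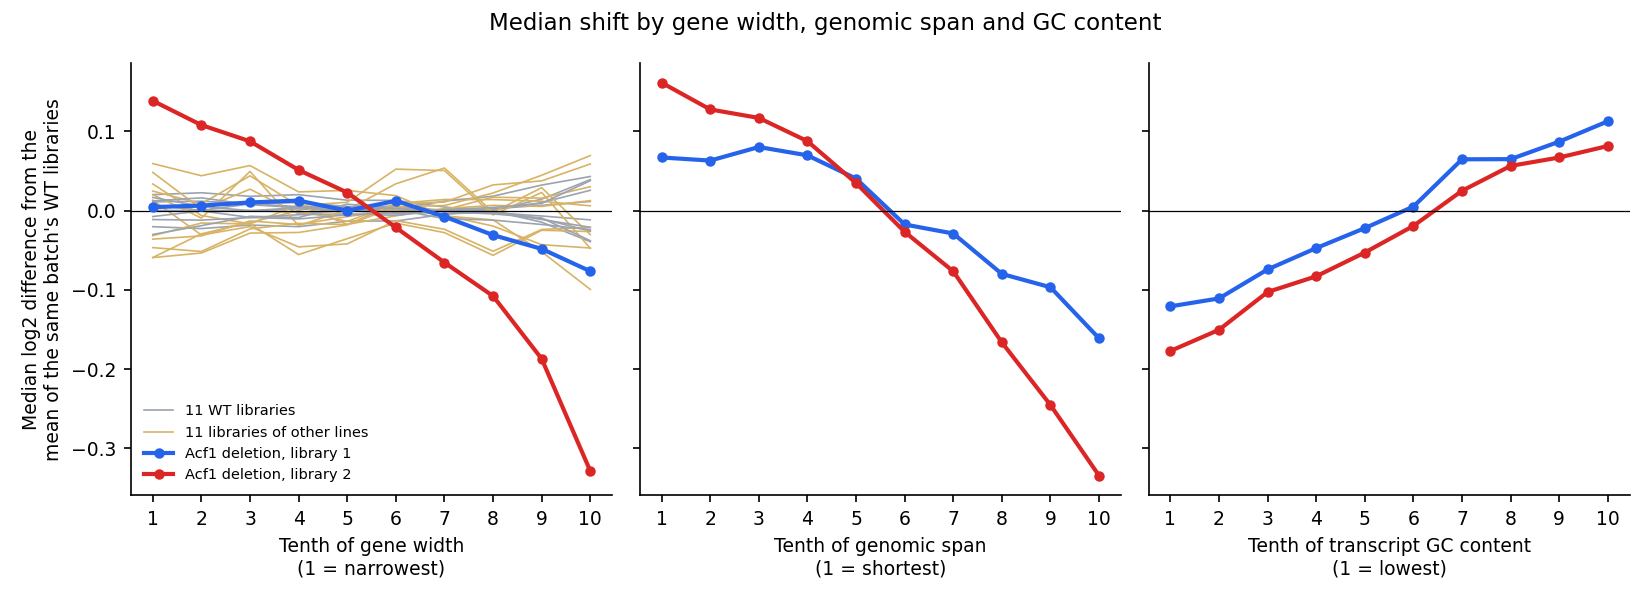
Median log2 difference of each library from the mean of the WT libraries of its batch (vertical axis), by 10 equal bins of gene width, of genomic span and of transcript GC content (horizontal axes). Blue and red lines are the Acf1Δ libraries, and in the left panel grey and ochre lines are the 11 WT libraries and the 11 libraries of other lines. Library 2 falls from 0.14 in the narrowest to -0.33 in the widest bin while library 1 goes from 0.0045 to -0.076.

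The named decreases were present on both sides of this relation. Acta2 and Rhox5, of 2196 and 754 bases, lie below the median width, and the contractile list had 12 decreases with the width offset against 11 without it. The 2-cell-like list had 9 decreases and the trophectoderm list 8 with the offset, as many as without. The remodelers went from 14 decreases to 8 and CTCF and cohesin from 7 to 4.

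Whether a difference is larger or smaller in Acf1Δ than in the other deletion lines was tested with a contrast of the Acf1 coefficient against the mean of the other 5, whose WT libraries are those of other batches. One of the 5, Bptf, is in batch C, which held far more Rpph1 RNA, and the part of that difference in the contrast was not tested. By this contrast 584 genes were more than 2-fold higher (3.72%) and 427 lower (2.72%), in all 1011 genes (6.45%), at an adjusted p under 0.01. Of the 698 DEGs of Acf1Δ, 313 also differed from the other lines in the same direction, 129 increased and 184 decreased. Of the 19 contractile and YAP genes 5 were higher than in the other lines and 1 lower at any size, against 17.5% and 16.6% of all genes tested, and Acta2 had a log2 fold change of -3.62 in Acf1Δ beside -5.24 in the line lacking Wstf, -3.05 for Rsf1, -2.30 for Cecr2 and -1.83 for Tip5. In the line lacking Bptf, Acta2 was at 0.087 ± 0.12 normalised CPM against 6.79 ± 0.47 in its WT (SD, n = 2 each).

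Most endoderm markers differed in this contrast. In Acf1Δ against its own WT 3 of 24 primitive and visceral endoderm genes rose and 3 fell, with a median log2 fold change of 0.05, which was 0.19 in library 1 and -0.13 in library 2. Without library 2 of Acf1Δ, or with the width offset, 6 rose, and without library 1 of Acf1Δ 5 fell. In the contrast 21 of the 24 were higher relative to the other lines and 1, Apoe, was lower. Sox17, a transcription factor of endoderm, rose from 16.2 and 15.4 normalised CPM to 26.5 and 25.4 (0.72, edgeR adjusted p = 2.66e-05), whereas the mean log2 fold change of the other lines was -2.92. Pdgfra, a receptor of primitive endoderm, was at 28.1 and 29.0 in WT and at 45.1 and 36.6 in Acf1Δ (0.51), with -2.24 for the mean of the others. Col4a1, of the basement membrane, had log2 fold changes of -0.0022 in Acf1Δ and -2.57 for the others.

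H19 was lower in Acf1Δ than in the mean of the other lines, with a log2 difference of -4.83. Its log2 fold change was -4.39 in the line lacking Wstf, -2.22 for Rsf1, 0.11 for Tip5 and 0.07 for Cecr2, and its level was 0.059 ± 0.0015 normalised CPM (SD, n = 2) in the line lacking Bptf. Dnmt3a (1.398) and Skor1 (3.12) were higher in Acf1Δ than in the mean of the others, which the line lacking Bptf lowers most, with log2 fold changes of -2.63 for Dnmt3a and -3.01 for Skor1. Dnmt3a was at 1.15 in Acf1Δ and 0.88 in the line lacking Rsf1, and Skor1 at 2.62 and 0.79. Lefty1 (-1.17), Tfap2c (-1.24) and Zscan4a (-3.78) were lower than the mean of the other lines. Some decreases of Acf1Δ were found in each of the other 5 lines. Log2 fold changes there ranged from -2.74 to -0.53 for Igf2 and from -4.95 to -0.88 for Krt7. For Krt19 they ranged from -3.01 to -0.46 and for Dppa3 from -4.02 to -0.41. Pluripotency genes were lower more often in this contrast, 13 of 24 against 6 higher, with Nanog at -0.74 and Tcl1 at -1.21. Y-linked genes also moved with this contrast. Ddx3y, an RNA helicase, was at 92.2 and 69.8 normalised CPM in Acf1Δ and between 59.2 and 95.2 in the 11 WT libraries, but at 1.62 or below in every library lacking Rsf1, Tip5, Bptf or Cecr2. Uty, a histone demethylase homologue, was at 42.2 and 32.4 in Acf1Δ, between 28.8 and 48.0 in WT, and at 0.0279 or below in every library lacking Rsf1, Bptf or Cecr2. Their part in the other differences between Acf1Δ and these lines was not tested.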

How the data were processed

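Messenger RNA libraries of 24 mESC samples were sequenced, and the deposited table holds raw read counts for 24594 genes. Per the methods, the authors aligned reads to mm10 with QuasR (spliced mode through Rhisat2, built on HISAT2) and counted them per gene of the UCSC known genes. Base calling used bcl2fastq 2.17, per the submitters' processing notes. The paper's reporting summary names that version for RNA-seq samples run on HiSeq and a later one for those run on NovaSeq. Every sample is labelled as polyadenylated RNA, but the labels name a stranded TruSeq mRNA kit and the methods an unstranded one. Strand use in counting is not given in the sources used here, so antisense and overlapping genes are uncertain. The table's width column was used as deposited, and 0 of its columns belong to samples of another series.

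Samples were grouped by title. Genes were filtered with filterByExpr, counts were scaled with TMM, and edgeR 4.0.16 (R 4.3.3, limma 3.58.1) fitted its quasi-likelihood model to 24 libraries with batch and genotype terms. Adjusted p-values are Benjamini-Hochberg values over the 15682 genes tested. A call needed an adjusted p under 0.01, and a DEG also an absolute log2 fold change above 1. The 2 Acf1Δ libraries were compared with the 2 of WT batch E, and the Acf1 coefficient with the mean of the other 5. Per-library differences used log2 of normalised CPM plus 0.5 minus the WT mean of the batch. Width offsets came from lowess curves (span 0.3). Levels at 0 counts were bounded at 3 counts per library, and intervals are exact 95% intervals that cover counting error only. Gene names, spans and sequences came from RefSeq tables on GRCm38.p6, to which 24570 IDs matched. GC content came from the longest GENCODE transcript.

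Named genes were Baz1a, the ISWI subunits, the 12 largest increases and decreases among DEGs with at least 10 counts, 6 small shifts per direction and, in the narrowest and widest of 10 bins of width, 3 genes per direction by p-value (at least 100 counts), and up to 4 members of each list by p-value. Other members named were chosen after their values were seen. The gene lists and the comparison itself were chosen with earlier results of these data known. The fit was tested on simulated data with seeded fold changes and a width tilt. Alternatives included DESeq2 1.42.0, other scalings, filters and sample sets, a replicate block and leaving out each library.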

Additional observations from a re-analysis of the deposited data

Results flagged for a closer look

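The contrast of the Acf1 log2 fold change with the mean of the other 5 deletion lines, in edgeR at an adjusted p under 0.01 and more than 2-fold, drew attention to 584 genes that were higher and 427 that were lower in Acf1Δ. Of 210 named genes 188 passed the test against WT of batch E, and 61 of these also differed by this contrast, 36 higher and 25 lower, with the log2 difference given after each name. The lower ones were Gm20362 (-6.89), Usp17lb (-5.68), H19 (-4.83), Zscan4a (-3.78), Zfp521 (-3.00), Zscan4d (-2.59), Fmr1nb (-2.04), Col1a1 (-2.01), Zfp750 (-1.75), Itgb3 (-1.61), Neurod1 (-1.55), Serpinb6c (-1.37), Fxyd6 (-1.29), Kif1a (-1.25), Tfap2c (-1.24), Lefty1 (-1.17), Ncam1 (-1.17), Zic2 (-1.16), Ets2 (-1.14), Baz2b (-1.12), Zic5 (-1.11), Hk1 (-1.10), Usp29 (-1.09), Trp53inp1 (-1.01) and Baz1a (-1.01). The higher ones were Megf11 (1.003), Mir682 (1.02), Ndufa4 (1.02), Rps13 (1.14), Pnp (1.19), Psmb10 (1.20), Atp5e (1.21), Snrpg (1.28), Tdrd1 (1.30), Cdkn1c (1.33), Snora61 (1.39), Dnmt3a (1.397), Myc (1.43), Peg13 (1.44), Rtl1 (1.45), Ccn2 (1.48), Akr1b3 (1.71), Krt18 (1.72), Rpl30 (1.77), Mt2 (1.87), Snord96a (1.88), Hoxb13 (1.94), Gm12191 (1.96), Dnmt3l (2.30), BC048507 (2.50), Pdgfra (2.75), Cfap65 (2.88), Skor1 (3.12), Snora24 (3.29), Mir6236 (3.39), Ccdc177 (3.54), Sox17 (3.64), Themis (3.65), Mir295 (3.67), Rpph1 (4.22) and Gm13315 (6.02). The fitted values of Gm20362, Usp17lb and Gm13315 rest on groups with 0 counts and depend on the prior count, so they are no bounds.

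The value of Baz1a does not set Acf1Δ apart from every line, since its log2 fold change was -1.72 in Acf1Δ and -1.74 in the line lacking Bptf. In 4 of the 61, Mt2, Dnmt3l, Pdgfra and Sox17, the gene rose in Acf1Δ while each of the 5 other lines had a log2 fold change below 0. Dnmt3l had a log2 fold change of 0.82 in Acf1Δ and values between -2.76 and -0.34 in the other lines. The WT libraries behind the lines belong to different batches, so a difference between batches and a difference between lines cannot be told apart for a gene whose WT level varies, as that of Skor1 (1.55 to 17.4 normalised CPM over 11 WT libraries) did.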

How the results depend on the processing

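The counts of DEGs and small shifts stayed within 1.5 times the main counts with edgeR's newer form, RLE or library-size scaling, DESeq2, either filter and the width offset (148 increased and 517 decreased DEGs in the last). With only the 4 batch E libraries, 1049 small shifts rose and 848 fell, and 307 list members were called against 543. Without a batch term 14 DEGs rose and 139 fell, 103 small shifts rose and 92 fell, 55 list members and 36 named genes passed (188 with the batch term), and the width slope was 0.023. The test against a 2-fold change called 20 increases and 95 decreases. The width slope was -0.0021 with the width offset and -0.0023 with the block added. When each library was left out in turn, DEGs numbered 110 to 201 increased and 401 to 510 decreased, small shifts 1468 to 2017 increased and 1301 to 2085 decreased, and the slope ranged from -0.13 to -0.029. Baz1a ranged from -1.73 to -1.71, list members called from 396 to 559 and named genes from 166 to 182. The causes were not tested.

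The replicate number as a block gave 159 increased and 482 decreased DEGs, 1915 and 1798 small shifts, a Baz1a log2 fold change of -1.72 and a slope of -0.094. With the width offset added to the block the DEGs were 139 and 489. The deviations of same-numbered libraries correlated at -0.157, and the labels give only the number, so the libraries were not treated as pairs. For the contrast with the other lines, the block (968 genes) and leaving out a library (881 to 1057) were chosen after seeing the data.

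Single genes that reversed, on the log2 scale, were these. Without a batch term: Gm13315 -0.38, Rmrp -6.20, Rpph1 -7.69, Snora24 -1.30, Smarca1 -0.063, Rtl1 -0.59, Eif2s3y 0.0083, Chic1 -0.091, Ftx -0.31, H3c6 -5.49, H4c4 -5.20, H2bc3 -5.84, H3c8 -4.42, Fdps -0.0042, Pcdhgc3 0.17, Pcdhga11 0.17, Pcdhga4 0.18, Pcdhgc5 0.19 and Mt2 -0.083. With the width offset Baz1b was at 0.018 and Xist at 0.048, and with the block added at 0.018 and 0.045. When libraries were left out in turn, Pole3 ranged from -0.014 to 0.19, Hmgxb4 from -0.12 to 0.030, Chrac1 from -0.061 to 0.23, Chic1 from -0.18 to 0.33 and Ftx from -0.061 to 0.31.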
